A study of Saccharomyces cerevisiae with 30 samples.

Results

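The transcripts described here are those of 10 genes that encode mitochondrial enzymes of the tricarboxylic acid (TCA) cycle in budding yeast: *CIT1*, *ACO1*, *IDH1*, *IDH2*, *KGD1*, *KGD2*, *LSC1*, *LSC2*, *FUM1* and *MDH1*. They were taken by gene name, as a set chosen with earlier results of these data known, and are 10 of the 5656 genes that had a probe set of their own on the arrays. Each of the 10 had 1 probe set, and all 10 were bright enough to enter the tests, which covered 4242 genes.

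The TCA cycle oxidises acetyl units to carbon dioxide in the mitochondrial matrix and passes the electrons to the respiratory chain. It also supplies 2-oxoglutarate for glutamate synthesis and succinyl-CoA for haem synthesis. In yeast growing on glucose the genes of the cycle are held low by glucose repression, and the Hap activator complex drives many of them when respiration is needed. *CIT1*, *ACO1*, *IDH1* and *IDH2* can also be driven by the retrograde regulators Rtg1 and Rtg3, which answer to the state of the mitochondria and to the supply of glutamate.

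Expression was measured on 30 Affymetrix Yeast S98 arrays, hybridised with total RNA from 4 strains made in BY4742, a haploid laboratory strain, each untreated and at 15 and 60 min after UV. All 4 lack the chromosomal *RAD7* gene by the methods of the study, and carry the *HIS3* plasmid pRS313 with a *RAD7* allele on it. The psocs *rad23Δ* strain has the SOCS-box mutant allele of *RAD7* and a deletion of *RAD23*, the pRAD7 *rad23Δ* strain has intact *RAD7* on the plasmid and the same deletion, the psocs strain has the mutant allele with *RAD23* present, and the pRAD7 strain has intact *RAD7* on the plasmid with *RAD23* present. The deletion was made by putting *URA3* in the place of *RAD23*.

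Rad7 belongs to a ubiquitin ligase that acts in nucleotide excision repair of untranscribed DNA, and Rad23 is the partner of the damage recognition protein Rad4. Cultures were grown at 30 °C to late log phase in minimal medium without histidine and irradiated with 100 J/m2 at 254 nm. There were 2 arrays per group for the *rad23Δ* strains and 3 per group for psocs and pRAD7, called biological replicates by the labels. The pRAD7 strain is thus a deletion strain complemented from a plasmid and not an unmodified wild type. RNA came from whole cultures, so fewer cells making a transcript and less of it per cell cannot be told apart.

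Signals are given on a linear scale after each array had been moved to a common median, and changes are differences of log2 signals. A change is called where the limma fit gave a Benjamini-Hochberg adjusted p under 0.05 over the 4242 genes. In the signals as deposited the strain labels held for the replaced genes: *RAD23* averaged 2.31 ± 0.99 in the *rad23Δ* strains (SD, n = 12) and 1097 ± 295 in the others (n = 18), and *URA3* averaged 418 ± 92.9 and 3.01 ± 2.32 in the same arrays. The *RAD7* probe set averaged 37.3 ± 11.0 with the psocs plasmid and 549 ± 297 with pRAD7 (n = 15 each), with ranges of 17.4 to 54.2 and 242 to 1167 that did not overlap. The methods describe the psocs allele as differing by point substitutions. The cause of the lower *RAD7* signal was not tested. Psocs and pRAD7 are used below as the names on the labels, and wherever a strain labelled psocs is set against one labelled pRAD7 the allele and the *RAD7* signal cannot be told apart. The mating type genes read as alpha, as BY4742 should: the 4 alpha genes had a median signal of 5301, and 6 of the 7 *a* genes were below the brightness limit.

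One 15 min array of each *rad23Δ* strain stood apart from its partner. Over 8 general stress genes the median log2 change from untreated cells was 0.51 on replicate 1 of psocs *rad23Δ* and 0.83 on replicate 2 of pRAD7 *rad23Δ*, against 2.92 and 2.77 on the other arrays of those groups and 2.76 to 3.73 on the 6 arrays of the psocs and pRAD7 strains at 15 min. The changes of the *rad23Δ* strains at 15 min and between 15 and 60 min are therefore given with and without these 2 arrays. The part of the stress response in the values of the TCA cycle genes was not tested. The array medians ran between 7.42 and 7.87 on the log2 scale before centring. Without centring, the median change of all tested genes at 60 min in pRAD7 was 0.16 and 1669 of 2769 calls were higher, where the centred values gave a median of -0.071 and 1275 of 2721.

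**Figure D1:**
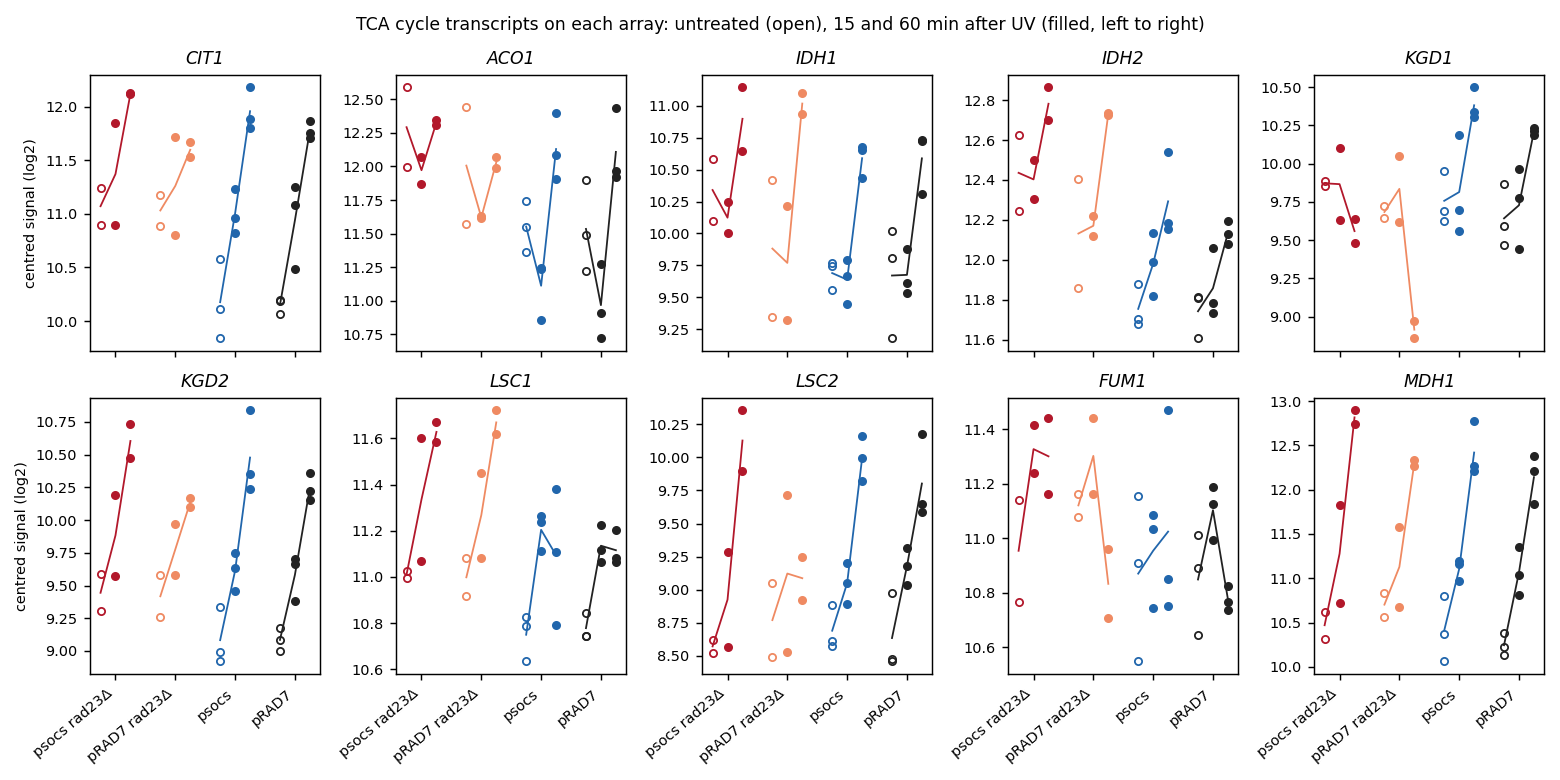
Centred log2 signal (vertical axis, a scale of its own for each gene) of the 10 TCA cycle transcripts on each of the 30 arrays, for the 4 strains from left to right. Within a strain, open points are untreated cells and filled points are 15 and then 60 min after UV, and lines join the group means. MDH1 and KGD2 climb in every strain, KGD1 climbs in psocs and pRAD7 but ends lowest at 60 min in both rad23Δ strains, and the FUM1 group means stay between 1754 and 2574 in signal.

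At 60 min after UV most of the cycle's transcripts had risen from untreated cells in psocs and pRAD7, and 5 of 10 had in each *rad23Δ* strain. *KGD2*, *LSC1* and *MDH1* rose in every strain, *CIT1*, *IDH1*, *IDH2* and *LSC2* rose in 3 strains each, and *ACO1* rose in 2. *KGD1* rose in 2 strains and fell in 1. *FUM1* was the only member called in none. The called members that were higher numbered 5 of 10 in psocs *rad23Δ*, 5 in pRAD7 *rad23Δ*, 9 in psocs and 9 in pRAD7.

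The UV response at this time reached most of the genome, and the counts are set against it. Of all tested genes, 60.5% were called in either direction in psocs *rad23Δ*, 61.4% in pRAD7 *rad23Δ*, 64.5% in psocs and 64.1% in pRAD7. The shares called higher were 33.0%, 33.9%, 32.2% and 30.1% in the same order, and 27.4% were called lower in pRAD7 *rad23Δ*, where *KGD1* fell. The 60 min and untreated arrays did not overlap for 80.1%, 81.7%, 67.3% and 70.3% of all tested genes in that order. A lack of overlap at 60 min, given below for single members, was thus usual. The median change of the 10 members was 0.59 in psocs *rad23Δ*, where the median of all tested genes was 0.080. It was 0.58 beside 0.11 in pRAD7 *rad23Δ*, 0.76 beside -0.023 in psocs, and 0.75 beside -0.071 in pRAD7. Left uncentred or quantile normalized, the arrays gave the same number of called members in psocs and pRAD7 and at most 1 more in the *rad23Δ* strains.

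**Figure D2:**
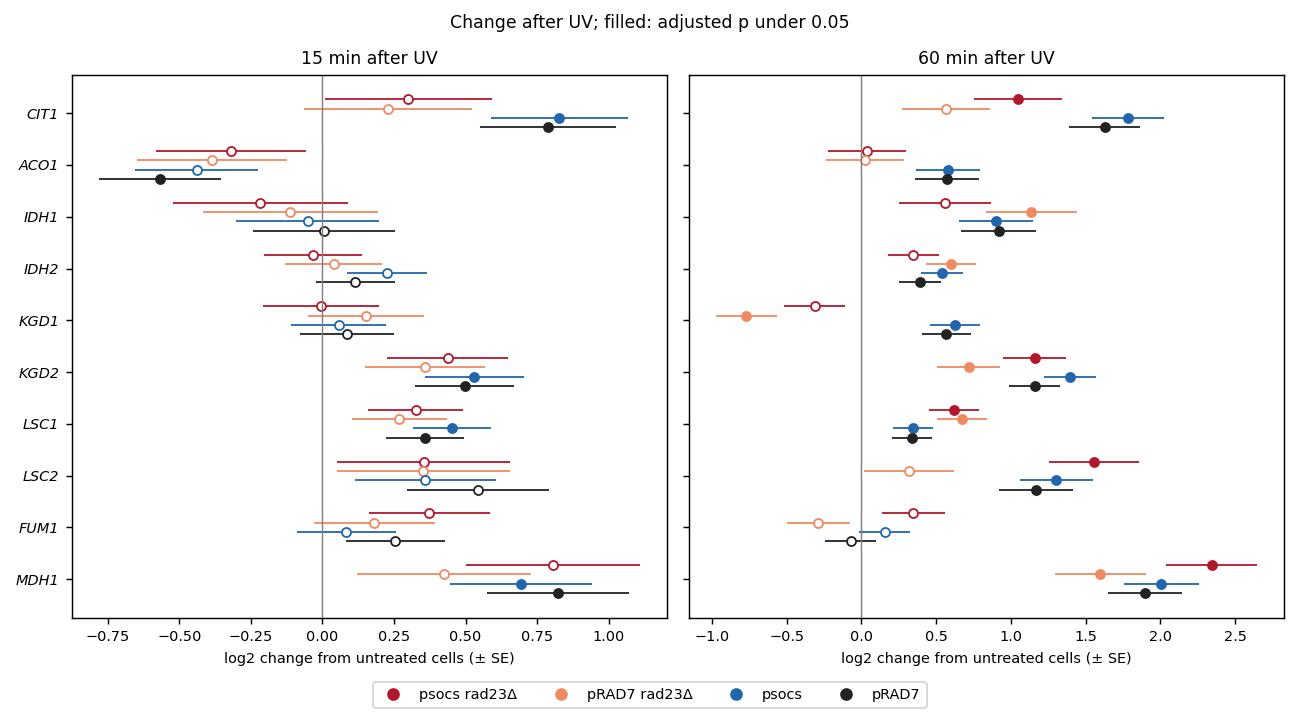
Log2 change from untreated cells (horizontal axis) at 15 min (left) and 60 min (right) for each TCA cycle gene in the 4 strains, with the standard error from the limma fit as bars and called changes filled. At 60 min MDH1 lies between 1.60 and 2.35 in the 4 strains, while KGD1 lies at -0.31 and -0.77 in the rad23Δ strains and at 0.62 and 0.57 in psocs and pRAD7.

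*CIT1* (YNR001C) encodes mitochondrial citrate synthase, which joins acetyl-CoA to oxaloacetate and opens the cycle. At 60 min its signal was 4653, 3786 and 3579.9 on the psocs arrays, against 1530.3, 917 and 1104 in untreated psocs cells. In pRAD7 it was 3737, 3348 and 3456 at 60 min and 1167, 1072 and 1174 in untreated cells. The groups lay far apart in both strains, with fold changes of 3.44 (log2 1.78 ± 0.24 SE, adjusted p = 7.64e-07, limma) and 3.09 (1.63 ± 0.24, adjusted p = 2.98e-06).

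In psocs *rad23Δ* the *CIT1* signal was 4439 and 4471 at 60 min and 2429.7 and 1908 in untreated cells, a rise of 1.05 ± 0.29 on the log2 scale (adjusted p = 0.00366, limma). In pRAD7 *rad23Δ* it was 2953 and 3258 at 60 min and 2319.8 and 1890.4 in untreated cells. These 2 groups did not overlap, but the difference of 0.57 ± 0.29 was not called (adjusted p = 0.0973). The untreated cells of both *rad23Δ* strains already stood above all untreated arrays of the psocs and pRAD7 strains.

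*ACO1* (YLR304C) encodes aconitase, an iron-sulphur enzyme that turns citrate into isocitrate. It was the one member called lower at 15 min. In pRAD7 its signal was 2870.2, 3814 and 2387 in untreated cells, 2472, 1690.0 and 1924 at 15 min and 5535, 3886 and 3997 at 60 min. The dip at 15 min measured -0.57 ± 0.21 (adjusted p = 0.0403, limma) although replicate 1 overlapped the untreated range, and the rise at 60 min measured 0.57 ± 0.21 (adjusted p = 0.0228).

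In psocs *ACO1* followed the same course, with 3431, 2997 and 2636, then 2409, 1858 and 2424, then 5380.0, 4347 and 3842, and was called at 60 min (0.58 ± 0.21, adjusted p = 0.0218, limma) but not at 15 min (-0.44, adjusted p = 0.117). In the *rad23Δ* strains the 60 min change was 0.036 for psocs *rad23Δ* and 0.024 for pRAD7 *rad23Δ*, neither called. There the untreated replicates were wide apart, at 4076 and 6164 for psocs *rad23Δ* and 3047 and 5551 for pRAD7 *rad23Δ*. The 95% intervals of the change were -0.51 to 0.58 and -0.52 to 0.57.

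*IDH1* (YNL037C) and *IDH2* (YOR136W) encode the 2 kinds of subunit of the NAD-dependent isocitrate dehydrogenase, a step that releases carbon dioxide and is regulated by AMP. *IDH1* read 1613, 1387 and 1635 at 60 min in psocs, against 858, 872 and 752 untreated, and 1703, 1266 and 1693 in pRAD7, against 896, 1040.4 and 579.9. The rises were 0.90 ± 0.25 (adjusted p = 0.00304, limma) and 0.92 ± 0.25 (adjusted p = 0.00264), with no overlap in either strain.

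In pRAD7 *rad23Δ* *IDH1* reached 1957 and 2197, against 650.3 and 1368 in untreated cells, and the change of 1.14 ± 0.31 was called (adjusted p = 0.00277, limma). It rested on untreated replicate 1: without that array, which left 1 in the group, it was 0.60 and not called. In psocs *rad23Δ* the values were 1607 and 2267 at 60 min and 1098 and 1530.2 untreated, a difference of 0.56 that was not called (adjusted p = 0.119).

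On the centred scale *IDH2* was brighter in the *rad23Δ* strains throughout the 60 min groups. Its 60 min signal was 7464 and 6647 in psocs *rad23Δ* and 6825 and 6772 in pRAD7 *rad23Δ*, both above the 5963, 4651 and 4556 of psocs and the 4679, 4482 and 4334 of pRAD7. In the signals as deposited the groups overlapped: psocs replicate 1 read 6644, pRAD7 *rad23Δ* 6623 and 6224, and psocs *rad23Δ* 6958 and 6463. The other psocs and pRAD7 arrays stayed below the *rad23Δ* arrays. The levels of the strains at 60 min were not tested against each other. From untreated cells *IDH2* rose by 0.60 ± 0.17 in pRAD7 *rad23Δ* (adjusted p = 0.0042, limma), 0.54 ± 0.14 in psocs (adjusted p = 0.00167) and 0.39 ± 0.14 in pRAD7 (adjusted p = 0.0169). The difference in psocs *rad23Δ*, 0.35, was not called (adjusted p = 0.0836).

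The next step, oxidation of 2-oxoglutarate to succinyl-CoA, is carried out by a complex whose E1 subunit is encoded by *KGD1* (YIL125W) and whose E2 subunit is encoded by *KGD2* (YDR148C). The transcripts of both partners rose in the strains with *RAD23*, while in pRAD7 *rad23Δ* *KGD2* rose and *KGD1* fell. *KGD1* at 60 min was 1449, 1297 and 1264 in psocs, against 991, 828 and 789.8 in untreated cells, and 1189, 1202 and 1164 in pRAD7, against 772, 708 and 935. The rises were 0.62 ± 0.17 (adjusted p = 0.00208, limma) and 0.57 ± 0.17 (adjusted p = 0.00453), and no 60 min array overlapped the untreated arrays of its strain.

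In pRAD7 *rad23Δ* *KGD1* was 501 and 464 at 60 min, against 846 and 800.0 untreated and 1061 and 787 at 15 min. The fall of -0.77 ± 0.20 on the log2 scale was called (adjusted p = 0.00233, limma). With any of the 4 arrays left out, which left 1 in a group, it lay between -0.83 and -0.71. In psocs *rad23Δ* it was 796 and 715 at 60 min, below the 926 and 948 of untreated cells on both arrays. That difference, -0.31 ± 0.20, was not called (adjusted p = 0.188), though it was under quantile normalization (-0.50, adjusted p = 0.0206).

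*KGD2* rose in all 4 strains. At 60 min it was 1700.2 and 1425 in psocs *rad23Δ*, against 768 and 632 untreated, and 1100.0 and 1153 in pRAD7 *rad23Δ*, against 764 and 612. The log2 rises were 1.16 ± 0.21 (adjusted p = 6.51e-05, limma) and 0.72 ± 0.21 (adjusted p = 0.00534). In psocs the change was 1.39 and in pRAD7 1.16, with 60 min means of 1449.5 ± 334 and 1215 ± 89.7, against untreated means of 547 ± 86.6 and 544 ± 32.8 (SD, n = 3).

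Succinyl-CoA ligase, which makes ATP from succinyl-CoA, has an alpha subunit encoded by *LSC1* (YOR142W) and a beta subunit encoded by *LSC2* (YGR244C). *LSC1* rose by 0.62 ± 0.17 in psocs *rad23Δ*, 0.67 ± 0.17 in pRAD7 *rad23Δ*, 0.34 ± 0.14 in psocs and 0.34 ± 0.14 in pRAD7 (adjusted p between 0.00144 and 0.0341, limma). In pRAD7 its signal was already 2222, 2141 and 2392 at 15 min and was 2358, 2167 and 2139 at 60 min, against 1838, 1717 and 1717 in untreated cells.

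*LSC2* rose in 3 strains. Its 60 min signal was 1312 and 955 in psocs *rad23Δ*, against 394 and 367 untreated, a rise of 1.56 ± 0.30 (adjusted p = 1.29e-04, limma). In psocs it was 1147, 1020.5 and 905, against 390.4, 473 and 380.5, and in pRAD7 1158, 802 and 767, against 351, 502 and 355, with rises of 1.30 ± 0.25 and 1.17 ± 0.25. In pRAD7 *rad23Δ* the groups overlapped, with 485 and 609 at 60 min and 530.3 and 359 untreated, and the difference of 0.32 ± 0.30 was not called (adjusted p = 0.371).

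*MDH1* (YKL085W) encodes the mitochondrial malate dehydrogenase, which regenerates oxaloacetate at the end of the cycle. It had the largest change of the 10 genes at 60 min in each strain. Its signal was 7620.0 and 6821 in psocs *rad23Δ*, against 1277 and 1576 in untreated cells, a 5.08-fold rise (log2 2.35 ± 0.30, adjusted p = 1.08e-06, limma). In pRAD7 *rad23Δ* it was 5154 and 4939, against 1518 and 1829, a 3.03-fold rise (1.60 ± 0.30, adjusted p = 1.04e-04). The 60 min and untreated arrays did not overlap in either strain, as was so for 80.1% and 81.7% of all tested genes.

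In psocs *MDH1* was 7029.7, 4929 and 4739 at 60 min, against 1787, 1069 and 1321 untreated, and in pRAD7 it was 5319, 3664 and 4724, against 1193, 1336 and 1121. The rises were 4.02-fold (2.01 ± 0.25, adjusted p = 2.40e-07, limma) and 3.72-fold (1.90 ± 0.25, adjusted p = 6.09e-07). Every array at 60 min lay above the brightest untreated array of its strain.

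*FUM1* (YPL262W), which encodes the fumarase of both mitochondria and cytosol, was called in no strain. The change at 60 min was 0.35 in psocs *rad23Δ* (95% interval -0.090 to 0.78), -0.29 in pRAD7 *rad23Δ* (-0.73 to 0.15), 0.15 in psocs (-0.20 to 0.51) and -0.072 in pRAD7 (-0.43 to 0.28). The adjusted p lay between 0.161 and 0.73. Under quantile normalization the pRAD7 *rad23Δ* value became -0.55 and was called (adjusted p = 0.0278). The group means of its signal over all 12 groups stayed between 1754 and 2574.

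Leaving out 1 array of a *rad23Δ* strain left 1 array in its group, so no adjusted p is given for these strains. At 60 min in psocs *rad23Δ* the called changes then ran from 0.87 to 1.22 for *CIT1*, 1.02 to 1.30 for *KGD2* and 0.57 to 0.66 for *LSC1*. They ran from 1.33 to 1.79 for *LSC2* and 2.19 to 2.50 for *MDH1*. In pRAD7 *rad23Δ* *LSC1* ran from 0.59 to 0.75 and *MDH1* from 1.46 to 1.73. There *IDH2* like *IDH1* lost its call without untreated replicate 1 (log2 0.33) and *KGD2* without untreated replicate 2 (0.56). In psocs *ACO1* lost its call without untreated replicate 3 or 60 min replicate 1 (changes of 0.44 to 0.69 over the 6 omissions, highest adjusted p 0.107), and *LSC1* without untreated replicate 2 or 60 min replicates 1 or 2 (0.20 to 0.50, 0.215). In pRAD7 *ACO1* lost it without untreated replicates 1 or 3 or 60 min replicate 1 (0.41 to 0.75, 0.134), *IDH2* without untreated replicate 3 or 60 min replicate 1 (0.33 to 0.43, 0.0747), and *LSC1* without untreated replicates 2 or 3 or 60 min replicates 1 or 2 (0.29 to 0.37, 0.106).

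At 15 min the response was partial. In psocs 4 of the 10 genes were called, where 34.2% of all tested genes were, and in pRAD7 5 were called, where 37.8% of all genes were. In both strains *CIT1*, *KGD2*, *LSC1* and *MDH1* were the ones that rose, and in pRAD7 *ACO1* fell. Of all genes 21.8% were called higher in psocs and 23.4% in pRAD7, and 14.4% were called lower in pRAD7. *CIT1* was 2413, 1806 and 1989 at 15 min in psocs and 2439.8, 1431 and 2168 in pRAD7, which is 0.83 ± 0.24 and 0.79 ± 0.24 above untreated cells (adjusted p = 0.00992 and 0.0126, limma). *MDH1* changed by 0.69 ± 0.25 in psocs and 0.82 ± 0.25 in pRAD7. *IDH1*, *IDH2*, *KGD1* and *FUM1* lay between -0.052 and 0.25 in both strains, with no call.

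These early calls were less firm than those at 60 min. With uncentred or quantile-normalized values only 3 and 3 members were called in pRAD7, and 3 and 1 in psocs. With 1 array left out at a time the count ran between 1 and 4 in pRAD7 and between 0 and 4 in psocs. *LSC1* in pRAD7 lost its call without any one of the 6 arrays (0.31 to 0.39, highest adjusted p 0.132), and *MDH1* in psocs without 15 min replicates 1 or 3 or untreated replicates 2 or 3 (0.52 to 0.89, 0.163). Leaving out 15 min replicate 1, the brightest in *CIT1* in both strains, ended the *CIT1* calls (0.71 in psocs and 0.63 in pRAD7, adjusted p = 0.0543 and 0.0762, limma). It also ended that of *MDH1* in pRAD7 (0.68, adjusted p = 0.0688). Without untreated replicate 2, *CIT1*, *KGD2* and *LSC1* in psocs were not called either (0.66, 0.45 and 0.40), and *KGD2* in psocs also lost its call without untreated replicate 3 or 15 min replicate 1 (highest adjusted p 0.0893). In pRAD7 *KGD2* lost it without untreated replicates 1 or 2 or 15 min replicates 1 or 3 (0.44 to 0.60, 0.0985), and *ACO1* without untreated replicates 1 or 2 or 15 min replicates 2 or 3 (-0.72 to -0.39, 0.217).

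In the *rad23Δ* strains no member was called at 15 min by limma, where 17.7% of all genes were called in psocs *rad23Δ* and 14.3% in pRAD7 *rad23Δ*. At an unadjusted p under 0.05 the counts were 2 in psocs *rad23Δ* and 0 in pRAD7 *rad23Δ*. Of all genes 33.1% and 29.2% were under that limit in the same order. The replicates of these groups differed widely: *CIT1* was 1908 and 3682 in psocs *rad23Δ* and 3377 and 1784 in pRAD7 *rad23Δ*, and *MDH1* was 1691 and 3638 in psocs *rad23Δ* and 3059.6 and 1637 in pRAD7 *rad23Δ*. In each pair the lower array was the one with little induction of the stress genes.

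Without those 2 arrays, a setting chosen after the data had been seen, 4 members were called in psocs *rad23Δ* and 2 in pRAD7 *rad23Δ*, each from the 1 array that remained, whose spread is then taken to be that of the other groups. In psocs *rad23Δ* these were *CIT1* (0.77, adjusted p = 0.0445), *KGD2* (0.75, adjusted p = 0.0228), *LSC1* (0.59, adjusted p = 0.0171) and *MDH1* (1.36, adjusted p = 0.00136). They are the 4 genes that rose in psocs and pRAD7. In pRAD7 *rad23Δ* they were *LSC2* (0.95, adjusted p = 0.0251) and *MDH1* (0.88, adjusted p = 0.0368).

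Between 15 and 60 min 5 members rose in psocs *rad23Δ*, 3 in pRAD7 *rad23Δ*, 7 in psocs and 7 in pRAD7, and *KGD1* fell in pRAD7 *rad23Δ*. The shares of all genes called in either direction were 44.6%, 45.0%, 54.1% and 52.5% in that order of strains. Called higher were 21.4%, 23.1%, 23.8% and 21.0%, and called lower in pRAD7 *rad23Δ* were 21.8%. *MDH1* and *IDH1* rose in every strain, but the *IDH1* call in psocs *rad23Δ* (0.77, adjusted p = 0.0431, limma) was lost without centring (adjusted p = 0.0516), with quantile normalization (0.0849), with no brightness filter (0.0516), with the compared groups only (0.0542) and without the 2 doubtful arrays (0.0619). *ACO1*, low at 15 min, rose by 1.02 ± 0.21 in psocs and 1.14 ± 0.21 in pRAD7 (adjusted p = 3.79e-04 and 1.25e-04, limma). The *LSC1* difference was -0.11 in psocs and -0.019 in pRAD7, but the pRAD7 value turned to 0.33 without centring and 0.40 after quantile normalization, both called.

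Over the same interval *KGD1* fell by 0.92 ± 0.20 on the log2 scale in pRAD7 *rad23Δ* (adjusted p = 8.05e-04, limma), and rose by 0.57 ± 0.17 in psocs and 0.48 ± 0.17 in pRAD7. In psocs *rad23Δ* the difference was -0.31 (adjusted p = 0.227). Without the 2 doubtful arrays, which left 1 array in each 15 min group, the pRAD7 *rad23Δ* value was -1.14. In psocs *rad23Δ* the *CIT1*, *IDH1* and *KGD2* calls were then lost. Leaving out single arrays also left 1 in a group in these strains. In psocs *rad23Δ* the *IDH1* call was lost without either 15 min array or 60 min replicate 2 (0.53 to 1.02 over the omissions). Those of *CIT1*, *KGD2* and *LSC2* were lost without 15 min replicate 1. The *CIT1* call was also lost without either 60 min array, and that of *KGD2* without 60 min replicate 1. In pRAD7 *rad23Δ* the *IDH1* and *IDH2* calls were lost without 15 min replicate 1 (0.80 to 1.70 and 0.51 to 0.61 over the omissions). That of *MDH1* was lost without 15 min replicate 2 (0.72 to 1.62). In pRAD7 *CIT1* and *KGD1* lost theirs without 15 min replicate 2 (highest adjusted p 0.0534 and 0.125). *LSC2* lost its call there without 15 min replicates 1 or 3 or 60 min replicate 1 (0.187). The 7 calls in psocs held.

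Before irradiation no difference was called between strains that differ in the *RAD7* plasmid alone, with its lower *RAD7* signal under the psocs label. Between psocs and pRAD7 no member was called by limma, none had an unadjusted p under 0.05, and the differences ran between -0.028 and 0.17, with 95% intervals that reached -0.50 and 0.68. Of all genes 0.0236% were called. Between psocs *rad23Δ* and pRAD7 *rad23Δ* the differences ran between -0.23 and 0.46 with no call, where 0.0943% of all genes were called.

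In untreated cells of the *rad23Δ* strains most of the group means were higher, with 1 gene called. Against psocs, 9 of 10 members were higher in psocs *rad23Δ* by their means, with a median of 0.31 beside 0.050 over all genes, and against pRAD7 all 10 were higher in pRAD7 *rad23Δ*, with a median of 0.30 beside 0.058. The arrays did not overlap for 5 members in the first comparison and 6 in the second, where 31.2% and 30.3% of all genes did not overlap. Only *IDH2* was called, and only with the psocs allele, at 0.68 ± 0.16 against psocs (adjusted p = 0.0311, limma, where 1.06% of all genes were called) and 0.69 ± 0.16 against pRAD7 (adjusted p = 0.0385, 0.519% of all genes).

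The untreated *IDH2* signals were 4857 and 6321 in psocs *rad23Δ* and 3719 and 5415 in pRAD7 *rad23Δ*, against 3759, 3282 and 3339 in psocs and 3584, 3595 and 3119.7 in pRAD7. All 4 *rad23Δ* arrays read above the 3 pRAD7 arrays, but pRAD7 *rad23Δ* replicate 1 lay within the psocs range. The *IDH2* calls were lost without either psocs *rad23Δ* array, which left 1 in its group. They were also lost without psocs untreated replicates 2 or 3 or any pRAD7 untreated array. Over all omissions the changes ran from 0.49 to 0.87 against psocs and 0.50 to 0.88 against pRAD7. *CIT1* had the largest untreated difference, 0.90 ± 0.27 for psocs *rad23Δ* against psocs and 0.88 ± 0.27 for pRAD7 *rad23Δ* against pRAD7, without a call in either (adjusted p = 0.113 and 0.106).

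In untreated cells of both *rad23Δ* strains replicate 2 was the brighter array for *ACO1*, *IDH1*, *IDH2*, *FUM1* and *MDH1* and replicate 1 for *CIT1*, *KGD2*, *LSC1* and *LSC2*. For *KGD1* the order differed between the strains. *IDH1* was 1098 and 1530.2 in psocs *rad23Δ* and 650.3 and 1368 in pRAD7 *rad23Δ*.

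Whether the change at 60 min depended on the strain was tested as an interaction, the difference between 2 strains of their log2 changes. For pRAD7 *rad23Δ* against pRAD7, 2 members were called, where 30.3% of all genes were: *KGD1* at -1.34 ± 0.26 (adjusted p = 6.00e-04, limma) and *CIT1* at -1.06 ± 0.38 (adjusted p = 0.0371). For psocs *rad23Δ* against psocs *KGD1* alone was called, at -0.94 ± 0.26 (adjusted p = 0.0271, where 10.1% of all genes were called). For psocs *rad23Δ* against pRAD7, which differ in *RAD7* signal as well, it was again *KGD1*, at -0.88 ± 0.26 (adjusted p = 0.031, 11.9% of all genes). These differences were negative, and of all genes 11.7%, 4.27% and 3.82% were called with a negative difference in the 3 comparisons. The first and the third comparison share the pRAD7 arrays, and the second and the third share the psocs *rad23Δ* arrays.

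The *KGD1* difference for pRAD7 *rad23Δ* lay between -1.45 and -1.25 with any of the 10 arrays left out. In this and the next cases, leaving out a *rad23Δ* array left 1 in its group. The *KGD1* call for psocs *rad23Δ* against psocs was lost without any of its 4 psocs *rad23Δ* arrays or without untreated psocs replicates 2 or 3 (-1.04 to -0.86). Against pRAD7 it was lost without those 4 arrays, untreated pRAD7 replicates 1 or 2 or pRAD7 60 min replicate 1 (-0.99 to -0.79). The *CIT1* call was lost without any of the arrays except untreated pRAD7 *rad23Δ* replicate 2 and pRAD7 60 min replicate 2 (-1.21 to -0.91). Untreated *CIT1* was 2105 ± 304 in pRAD7 *rad23Δ* (SD, n = 2) and 1138 ± 57.1 in pRAD7 (n = 3), while at 60 min the strains read 3105 ± 216 and 3514 ± 201. In the signals as deposited these were 2246 ± 313 and 1182 ± 17.4 untreated, and 2930 ± 91.5 and 4286 ± 238 at 60 min. Over the alternatives other than leaving out a single array the *CIT1* difference ran from -1.66 to -1.06.

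The counts depended on the scaling of the arrays. Over all genes the median difference for pRAD7 *rad23Δ* against pRAD7 was 0.14 with centring, and 787 of 1284 calls were positive. Without centring it was -0.27, with 296 of 1402, and with quantile normalization -0.0061, with 473 of 1133. The called members rose in number to 5 without centring and 7 with quantile normalization, all of them negative. *IDH2* changed sign, with 0.21 in the main fit, -0.20 without centring and -0.56 with quantile normalization (adjusted p = 0.0258). *KGD1* stayed negative and called under each, at -1.75 and -1.55.

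For psocs *rad23Δ* against psocs 246 of 427 calls over all genes were positive with centring and 88 of 599 without it, and the *KGD1* difference was -1.24 without centring and -1.09 with quantile normalization. For psocs *rad23Δ* against pRAD7 the split was 343 of 505 and 111 of 697, and the *KGD1* difference was -1.25 and -1.11.

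No difference in the UV response was called between strains that differ in the plasmid label alone. For psocs against pRAD7 at 60 min no member and none of all 4242 genes was called by limma, with 0 members and 37 genes at an unadjusted p under 0.05. The differences ran between -0.018 and 0.24, and the 95% intervals were wide enough to hold differences of 0.86 (*CIT1* and *LSC2*) or of -0.75 (*IDH1*). Between psocs *rad23Δ* and pRAD7 *rad23Δ* no member was called either, where 0.354% of all genes were called. At an unadjusted p under 0.05 by limma there were 2 members and 11.4% of all genes. The largest difference was that of *LSC2*, 1.24 ± 0.43 (adjusted p = 0.225, limma). At 15 min no gene of the 4242 was called in any of the 5 comparisons of strains, and no member had an unadjusted p under 0.05. Those that include a *rad23Δ* strain hold the arrays with little stress induction, and values without these arrays are not given here. A difference between strains at 15 min could therefore have been missed.

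**Figure D3:**
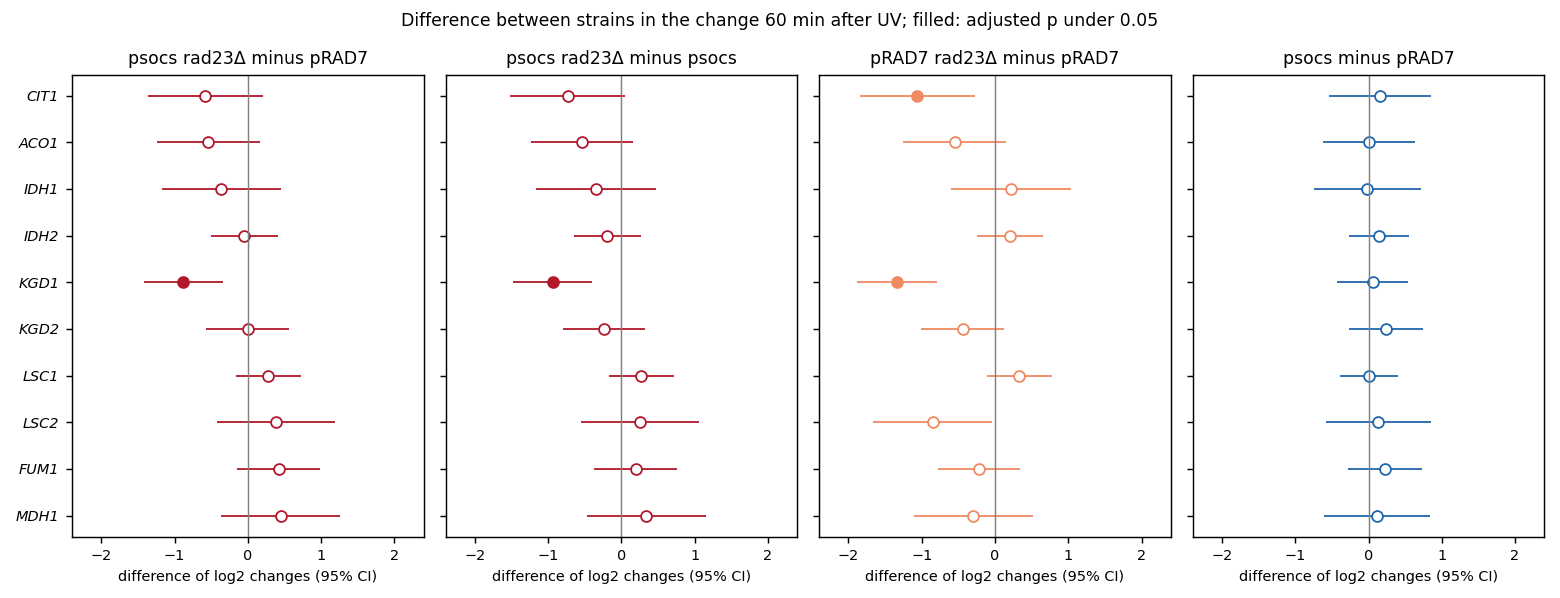
Difference between 2 strains in the log2 change at 60 min after UV (horizontal axis, with the 95% confidence interval of the limma fit) for each TCA cycle gene, called differences filled. KGD1 lies left of zero and is filled in the 3 panels that set a rad23Δ strain against a strain with RAD23, and in the panel of psocs against pRAD7 all intervals cover zero. The IDH2 point of pRAD7 rad23Δ against pRAD7, 0.21, changes sign with other scalings of the arrays.

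The ratio of 2 transcripts on the same array is untouched by a shift of the whole array. The log2 ratio of *KGD1* to *KGD2* is given relative to its mean in untreated pRAD7 cells. In the psocs *rad23Δ* strain it was -0.13 untreated, -0.57 at 15 min and -1.60 at 60 min, and in pRAD7 *rad23Δ* it was -0.29, -0.50 and -1.78. In psocs it was 0.12, -0.36 and -0.65, and in pRAD7 it was -0.41 at 15 min and -0.59 at 60 min. The 4 *rad23Δ* arrays at 60 min, between -1.87 and -1.55, lay below the 6 arrays of the other strains, between -0.90 and -0.50.

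For *FUM1* over *MDH1* the arrays of the strains lay together. The ratio at 60 min averaged -2.12 in psocs *rad23Δ*, -2.07 in pRAD7 *rad23Δ*, -2.00 in psocs and -1.97 in pRAD7, and the 10 arrays lay between -2.23 and -1.71. The ratio of the succinyl-CoA ligase subunits, *LSC1* over *LSC2*, was -0.65 at 60 min in psocs *rad23Δ*, -1.04 in psocs and -0.83 in pRAD7, but 0.44 in pRAD7 *rad23Δ*, whose 2 arrays (0.33 and 0.55) lay above all the other 60 min arrays.

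**Figure D4:**
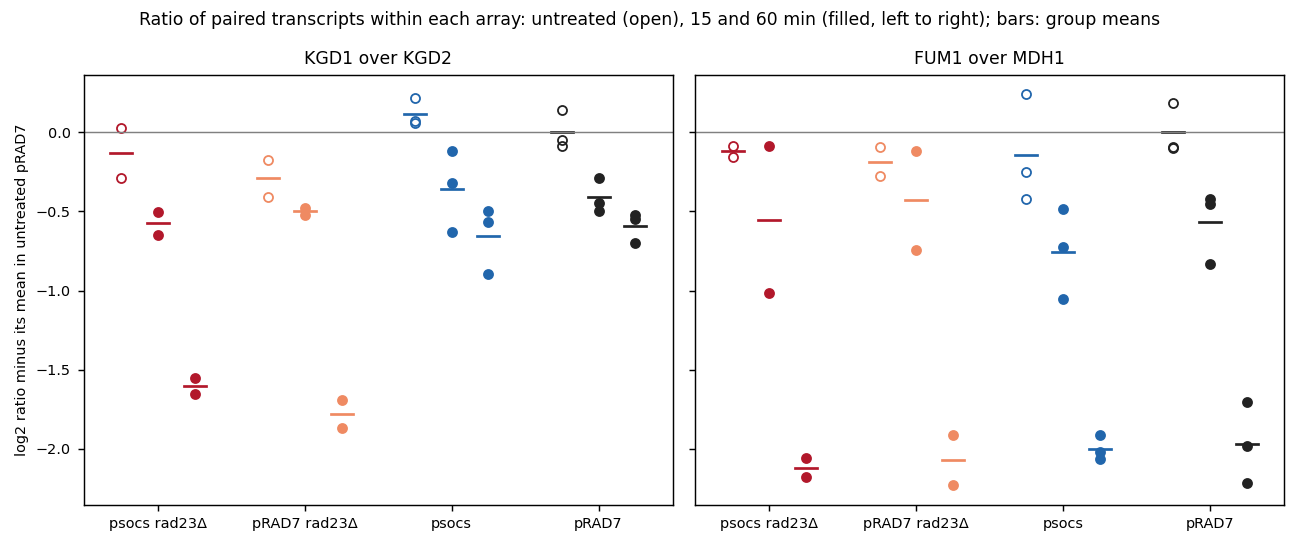
Log2 ratio of KGD1 to KGD2 (left) and of FUM1 to MDH1 (right) on each array, minus its mean in untreated pRAD7 cells, for the 4 strains with untreated (open), 15 and 60 min arrays (filled) from left to right and group means as bars. At 60 min the KGD1 to KGD2 ratio averages -1.60 and -1.78 in the rad23Δ strains and -0.65 and -0.59 in psocs and pRAD7, while the FUM1 to MDH1 ratio is near -2.00 in all 4.

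Genes around the cycle were described at 60 min by the same fit. Succinate dehydrogenase, the step between *LSC1*/*LSC2* and *FUM1* and the link to the respiratory chain, was called higher for 4 of 4 subunits in every strain. Over all tested genes 33.0% were called higher in psocs *rad23Δ*, 33.9% in pRAD7 *rad23Δ*, 32.2% in psocs and 30.1% in pRAD7, and 27.5%, 27.4%, 32.4% and 34.1% were called lower in that order. *SDH2*, the iron-sulphur subunit, changed by 2.61 in psocs *rad23Δ*, 2.16 in pRAD7 *rad23Δ*, 2.42 in psocs and 2.47 in pRAD7. The median over *SDH1* to *SDH4* was 1.68 in psocs *rad23Δ*, 1.15 in pRAD7 *rad23Δ*, 1.32 in psocs and 1.27 in pRAD7, above the median of the 10 members in each.

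Of the pyruvate dehydrogenase subunits and those the 2-oxoglutarate dehydrogenase shares or adds, 4 of 6 were called higher in psocs *rad23Δ*, 4 in pRAD7 *rad23Δ*, 3 in psocs and 3 in pRAD7, and none lower (higher were 30.1% to 33.9% of all genes). *KGD4*, which ties the E3 subunit to the 2-oxoglutarate dehydrogenase, rose by 1.44 in psocs *rad23Δ*, 1.38 in pRAD7 *rad23Δ*, 1.35 in psocs and 1.28 in pRAD7. *LAT1*, the E2 subunit of pyruvate dehydrogenase, rose by 1.25 in psocs *rad23Δ*, 1.32 in pRAD7 *rad23Δ*, 0.85 in psocs and 0.78 in pRAD7, and *PDX1*, its E3-binding protein, by 0.73 in psocs *rad23Δ*, 0.77 in pRAD7 *rad23Δ*, 0.67 in psocs and 0.59 in pRAD7.

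The isoenzymes outside the cycle were mixed. Of 8 listed genes 7 were on the array and 4 were bright enough to test, of which 3 were called higher in psocs *rad23Δ*, 2 in pRAD7 *rad23Δ*, 1 in psocs and 1 in pRAD7, where 30.1% to 33.9% of all genes were. Peroxisomal malate dehydrogenase, *MDH3*, rose in every strain (0.96 in psocs *rad23Δ*, 0.62 in pRAD7 *rad23Δ*, 0.84 in psocs and 0.65 in pRAD7). Cytosolic malate dehydrogenase, *MDH2*, rose in psocs *rad23Δ* (0.87, adjusted p = 0.038, limma) and fell in pRAD7 (-0.77, adjusted p = 0.0232). The mitochondrial NADP-dependent isocitrate dehydrogenase, *IDP1*, rose in both *rad23Δ* strains (1.12 in psocs *rad23Δ* and 1.01 in pRAD7 *rad23Δ*) and read 0.17 and 0.083 in psocs and pRAD7 without a call. For psocs *rad23Δ* against psocs the interaction was called for *MDH2* (1.48, adjusted p = 0.0428) and not for *IDP1* (0.95, adjusted p = 0.161).

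Among enzymes that feed or bypass the cycle, 5 of 8 could be tested. *ACS1*, the acetyl-CoA synthetase repressed by glucose, rose in every strain (1.10 in psocs *rad23Δ*, 0.88 in pRAD7 *rad23Δ*, 1.26 in psocs and 1.51 in pRAD7), and *ACS2*, the form used on glucose, fell in every strain (-0.97 in psocs *rad23Δ*, -0.93 in pRAD7 *rad23Δ*, -1.04 in psocs and -1.14 in pRAD7). *PYC2*, a pyruvate carboxylase, fell as well (-0.64 in psocs *rad23Δ*, -0.82 in pRAD7 *rad23Δ*, -0.48 in psocs and -0.68 in pRAD7). Of the carriers across the inner membrane 9 were tested, with 2 higher and 1 lower in psocs *rad23Δ*, 4 and 1 in pRAD7 *rad23Δ*, 1 and 2 in psocs, and 1 and 2 in pRAD7. Of all genes 30.1% to 33.9% were higher and 27.4% to 34.1% lower. *MPC3*, a pyruvate carrier subunit of respiring cells, had the largest change of any gene on these lists in psocs and pRAD7 (2.76 in psocs *rad23Δ*, 1.73 in pRAD7 *rad23Δ*, 3.05 in psocs and 3.32 in pRAD7). *YHM2*, a citrate and oxoglutarate carrier, fell in every strain (-0.75 in psocs *rad23Δ*, -0.92 in pRAD7 *rad23Δ*, -1.09 in psocs and -1.01 in pRAD7), and *OAC1*, the oxaloacetate carrier, fell in psocs (-0.57) and pRAD7 (-0.58).

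The transcripts of the Hap activator rose in some strains only. *HAP4*, the limiting subunit of the Hap activator, had a mean signal of 541 ± 35.9 at 60 min in psocs *rad23Δ* and 227 ± 51.3 untreated (SD, n = 2), a rise of 1.27 (adjusted p = 0.0193, limma). In pRAD7 *rad23Δ* it was 246 ± 42.9 and 294 ± 84.5, with no call (-0.24, adjusted p = 0.667). In psocs it was 603 ± 87.6 and 139 ± 39.1, and in pRAD7 433 ± 88.5 and 140.3 ± 5.34 (n = 3), rises of 2.14 and 1.60.

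The interaction for *HAP4* was -1.84 ± 0.59 for pRAD7 *rad23Δ* against pRAD7 (adjusted p = 0.02, limma) and -0.87 ± 0.59 for psocs *rad23Δ* against psocs (adjusted p = 0.378, not called). *HAP5*, another subunit, rose in psocs (1.32) and pRAD7 (1.19) and read 0.41 and 0.26 in psocs *rad23Δ* and pRAD7 *rad23Δ* without a call. Its interaction was -0.93 for pRAD7 *rad23Δ* against pRAD7 (adjusted p = 0.00966) and -0.91 for psocs *rad23Δ* against psocs (adjusted p = 0.0303). The retrograde factor *RTG3* was called only in pRAD7, where it fell (-0.54, adjusted p = 5.00e-04), and the interaction for pRAD7 *rad23Δ* against pRAD7 was called as well (0.87, adjusted p = 0.00169). Of the 8 tested regulators 3, 0, 4 and 3 were called higher in psocs *rad23Δ*, pRAD7 *rad23Δ*, psocs and pRAD7, against 30.1% to 33.9% of all genes.

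Of 4 tested genes of glutamate and glutamine metabolism, 2 were called lower in psocs *rad23Δ*, 2 in pRAD7 *rad23Δ*, 3 in psocs and 3 in pRAD7, where 27.4% to 34.1% of all genes were. *GLT1*, glutamate synthase, fell in every strain (-1.93 in psocs *rad23Δ*, -3.46 in pRAD7 *rad23Δ*, -1.44 in psocs and -1.49 in pRAD7), with an interaction of -1.98 for pRAD7 *rad23Δ* against pRAD7 (adjusted p = 4.61e-05, limma). *GDH1*, the NADP-dependent glutamate dehydrogenase that makes glutamate, fell in psocs (-1.35) and pRAD7 (-1.08). *GDH2*, the NAD-dependent enzyme that returns glutamate to 2-oxoglutarate, rose in 3 strains and not in pRAD7 *rad23Δ* (1.06 in psocs *rad23Δ*, 0.28 in pRAD7 *rad23Δ*, 1.49 in psocs and 1.43 in pRAD7), and its interaction for pRAD7 *rad23Δ* against pRAD7, -1.15, was called (adjusted p = 0.00467).

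None of the called genes named in these lists changed sign under the other scalings, but some calls were lost. With uncentred and with quantile-normalized values *SDH1* in pRAD7 *rad23Δ* was not called (0.49, adjusted p = 0.116, and 0.61, adjusted p = 0.0514, limma), nor was *OAC1* in psocs (-0.41, adjusted p = 0.129, and -0.17, adjusted p = 0.525) or pRAD7 (-0.35, adjusted p = 0.196, and -0.063, adjusted p = 0.828). *MDH2* lost its call in psocs *rad23Δ* under both (0.73, adjusted p = 0.0643, and 0.61, adjusted p = 0.116), and so did its interaction (1.18, adjusted p = 0.0703, and 1.27, adjusted p = 0.0661). The *MDH2* call in pRAD7 and that of *PYC2* in psocs were lost without centring (-0.54, adjusted p = 0.0875, and -0.32, adjusted p = 0.125). Those of *IDP1* in pRAD7 *rad23Δ* and *GDH1* in pRAD7 were lost with quantile normalization (0.68, adjusted p = 0.0928, and -0.72, adjusted p = 0.113).

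**Figure D5:**
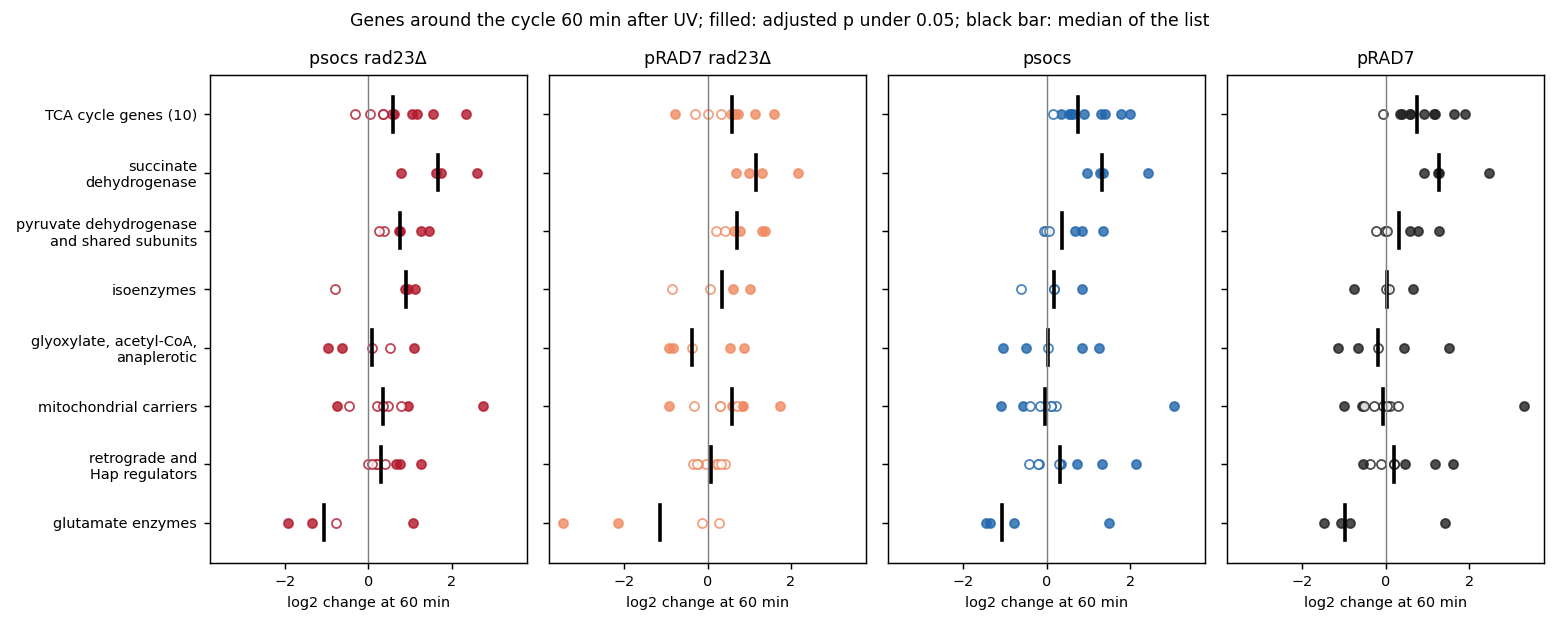
Log2 change at 60 min after UV (horizontal axis) of each tested gene of the TCA cycle set and of 7 lists of related genes (rows), in the 4 strains from left to right, with called genes filled and black bars at the median of each row. With centred values the succinate dehydrogenase genes lie right of zero and are filled in every strain, and the glutamate enzymes have medians between -1.14 and -0.97.

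Over the 12 group means the members did not form a single pattern. Pearson's r between a member and the mean of the 10 was 0.98 for *KGD2* and *CIT1* and 0.95 for *MDH1*, 0.87 and 0.86 for *IDH1* and *LSC2*, 0.81 for *IDH2*, 0.74 for *LSC1* and 0.66 for *ACO1*, but 0.27 for *FUM1* and 0.10 for *KGD1*. Among pairs it ran between 0.98 for *KGD2* with *MDH1* and -0.46 for *KGD1* with *LSC1*, and it was 0.86 for *IDH1* with *IDH2*, 0.50 for *LSC1* with *LSC2* and 0.13 for *KGD1* with *KGD2*. These values describe group means that share arrays and a common time course, and each member is part of the mean it is set against.

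The genes outside the set whose group means were most like the mean of the members were *COS7* (r = 0.98), *APE4* (0.98), a vacuolar aminopeptidase, *DAK1* (0.98), a dihydroxyacetone kinase, *NUR1* (0.98), a nuclear envelope protein, and *DOT5* (0.98), a nuclear thiol peroxidase. In all, 280 genes had an r above 0.9 over the same 12 means.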

How the data were processed

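Total RNA from 30 yeast cultures was hybridised to Affymetrix Yeast S98 arrays. The authors deposited the MAS5 signal of each probe set from Affymetrix Expression Console, a linear intensity scaled so that the trimmed mean of each array is near 500 (the middle 96% of values average 500.3 to 500.5 on every array). The labels give no version of either tool. The arrays held 9335 probe sets, of which the 6504 annotated to 1 gene were used, leaving out 60 controls, 328 annotated to several genes and 2443 with no name. Every value column could be tied to a sample. Each array's log2 values were centred on the median of the array medians (shifts of -0.29 to 0.15), values under the 10th percentile (signal 8.24) were set to it, and the probe set with the highest mean stood for a gene. Genes with a mean log2 under 6.53, the 25th percentile, were left out, which kept 4242 of 5656 genes. One limma fit (version 3.58.1, R 4.3.3, trended empirical Bayes) with a mean for each of the 12 groups gave 27 comparisons, each adjusted by Benjamini-Hochberg. The few arrays per group limit the precision. Samples were grouped by the labels, and no 2 arrays held identical values. Named are all 10 members, up to 3 genes of each related list with the largest change at 60 min in pRAD7 together with genes a list's count rests on, the 5 genes most like the members' mean, and the label checks. The members and lists were chosen with earlier results of these data known. Alternatives were uncentred or quantile-normalized values, no floor, the mean of all probe sets, no or a stricter brightness filter, a fit of the compared groups only, a replicate block, and leaving out arrays. The fit was tested on simulated data. Python 3.11.15, pandas 2.3.3 and matplotlib 3.10.9 were used for tables and plots.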

Additional observations from a re-analysis of the deposited data

Results flagged for a closer look

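The change at 60 min after UV differed between strains by a test of the difference itself in 4 cases. For pRAD7 *rad23Δ* against pRAD7 the difference was -1.34 on the log2 scale for *KGD1* (adjusted p = 6.00e-04, limma) and -1.06 for *CIT1* (adjusted p = 0.0371), where 30.3% of all genes were called. For *KGD1* the difference was -0.94 for psocs *rad23Δ* against psocs (adjusted p = 0.0271) and -0.88 for psocs *rad23Δ* against pRAD7 (adjusted p = 0.031). In these comparisons 10.1% and 11.9% of all genes were called. The comparisons share arrays, so the *KGD1* values are not separate results. The *CIT1* value lost its call without any of 8 of the 10 arrays, and the last 2 *KGD1* values without any of 6 and 7 arrays.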

How the results depend on the processing

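Of 67 called changes and differences of the 10 genes, 35 kept their call under every alternative, 32 lost it under at least 1, 21 of those only when an array was left out, and none changed direction. A further 29 that were not called became so under some alternative. The number of called genes at 60 min stayed within 1 of that reported under each alternative other than leaving out an array, which gave 6 to 9 in pRAD7 and 7 to 9 in psocs. At 15 min uncentred values gave 3 in pRAD7, and quantile normalization gave 3 in pRAD7 and 1 in psocs. Leaving out an array gave 1 to 4 in pRAD7 and 0 to 4 in psocs. In the *rad23Δ* strains it left 1 array in a group, whose spread is then taken to be that of the other groups. No such count is given for their changes after UV or between 15 and 60 min. Such fits are part of the 35 kept and 32 lost calls above and of the strain comparisons below. For 60 against 15 min in psocs *rad23Δ* a fit of the compared groups only gave 2. Leaving out an array gave 5 to 7 in pRAD7 and 7 to 8 in psocs. The untreated *IDH2* call of psocs *rad23Δ* against psocs left 0 called genes with the compared groups only and 0 to 1 without an array. Against pRAD7 *IDH2* was not called with the compared groups only either (adjusted p = 0.127), where *CIT1* was called in its place (adjusted p = 0.0296), and the count was 0 to 0 without an array. For the response differences at 60 min, pRAD7 *rad23Δ* against pRAD7 had 5 called genes uncentred, 7 quantile normalized and 1 to 2 without an array. Quantile normalization gave 3 for psocs *rad23Δ* against psocs and 3 for psocs *rad23Δ* against pRAD7, with 0 to 1 without an array in both. The uncalled *LSC1* and *FUM1* differences of 60 against 15 min in pRAD7 turned to 0.33 and 0.018 uncentred and 0.40 and 0.049 quantile normalized, with *LSC1* at -0.063 to 0.025 and *FUM1* at -0.38 to -0.28 without an array. The *IDH2* response difference of pRAD7 *rad23Δ* against pRAD7 turned to -0.20 and -0.56 (-0.064 to 0.48 without an array). The cause of these shifts was not tested. Arrays left out also changed the sign of 15 min changes that were not called, *LSC2* (-0.25 to 0.95) and *MDH1* (-0.026 to 0.88) in pRAD7 *rad23Δ* and *CIT1* (-0.17 to 0.77) in psocs *rad23Δ*, and of the *IDH2* response difference of psocs *rad23Δ* against pRAD7 (-0.24 to 0.14). By the rule that every pair must correlate, replicate numbers were not taken to pair the samples: deviations of arrays with the same number in a strain correlated between -0.34 and 0.51, and 12 of 30 pairs were over 0.1, against 9 of 48 pairs with different numbers in a strain. Across strains 49 of 117 pairs with the same number were over 0.1 (-0.76 to 0.60), against 58 of 216 with different numbers. Deviations in a group of 2 arrays mirror each other, so there an r for the same number recurs with opposite sign for different numbers. A rule that 1 pair can fail cannot decide whether the numbers pair the samples. A replicate block shared by all strains left every count of called genes as reported. A replicate block within each strain gave 4 at 15 min in pRAD7, 1 at 15 min in psocs *rad23Δ*, 5 for 60 against 15 min in pRAD7 *rad23Δ*, and 0 in both untreated comparisons of psocs *rad23Δ*.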
